A study of Mus musculus with 17 samples.

Results

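Collagen chain genes encode the polypeptides that wind in threes into the collagens, the main structural proteins of the extracellular matrix. They were chosen by symbol alone, as protein-coding mouse genes named Col, a type number, a and a chain number, and 44 of the 35971 genes in the annotated tables met the rule. By the type of collagen they encode, 11 were fibrillar, 8 belonged to basement membranes and 25 to other types. These other types were 6 chains of microfibrillar type VI, 9 fibril-associated chains (FACIT), 3 short chain network collagens, 4 transmembrane collagens, the anchoring fibril collagen Col7a1 and a remainder of 2, Col26a1 and Col28a1.

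In the kidney, fibroblasts and pericytes of the interstitium are the usual source of the fibrillar types I, III and V, whose accumulation defines renal fibrosis. Type IV collagen is the sheet-forming collagen of basement membranes. Its Col4a1 and Col4a2 chains are laid down in basement membranes of nearly every tissue, whereas Col4a3, Col4a4 and Col4a5 form the network of the mature glomerular filter, made by podocytes, and of some tubules, and their loss causes Alport syndrome. Types XV and XVIII are basement membrane collagens that carry sugar chains, and Col18a1 is the precursor of endostatin, an inhibitor of vessel growth.

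The samples were whole kidneys of a mouse model of TFE3-rearranged renal cell carcinoma (TFE3-RCC), in which the fusion gene PRCC-TFE3 sits silent at Rosa26 behind a loxP-stop-loxP cassette (lsl-PRCC-TFE3 KI) and is switched on by a Cadherin 16 (KSP) Cre transgene, active in kidney epithelial cells. Every group carried lsl-PRCC-TFE3 KI. The 4 Cre(−) kidneys had no Cre, and replicates 1 and 2 of them also carried floxed Hif1α. The 3 KI kidneys had Cre and no floxed Hif allele, the 4 KI/Hif1α KO kidneys Cre and Hif1α f/f, the 3 KI/Hif2α KO kidneys Cre and Hif2α f/f, and the 3 KI/Hif1α/Hif2α DKO kidneys (KI/DKO) Cre with both floxed genes. The study killed mice of these genotypes at 8 months of age. This Cre is described as epithelial, so interstitial and vascular cells would keep their Hif genes, and in whole kidney RNA fewer cells of a type and less RNA per cell cannot be told apart. The labels number the libraries largely by group and do not say what the numbers stand for, so anything that followed them and the group cannot be told apart.

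Libraries held 16504419 to 24668827 counts. Hif1a had 163 to 198 CPM (counts scaled to library size and by TMM, which aligns libraries on the genes that change least) in KI/Hif1α KO and 174 to 203 in KI/DKO, which overlapped the 184 to 232 of KI; Epas1, the gene of Hif2α, had 136 to 149 in KI/Hif2α KO and 155 to 165 in KI/DKO, below the 173 to 192 of KI. These totals per gene do not show whether the floxed exons were lost. Kidney epithelial markers were abundant in Cre(−) kidneys, where a list of 10 proximal tubule genes summed to 22328 to 28870 CPM, against 1060 to 1382 in KI. Adipocyte markers stood apart in KI replicate 2, with a sum of 2157 CPM against 104 and 203 in the other KI kidneys.

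Type IV collagen genes lie in head-to-head pairs that point away from a shared start region, and the results below turn on these pairs. In GRCm38, Col4a1 (minus strand, chr8:11198423-11312826) and Col4a2 (plus strand, chr8:11312805-11449287) overlap by 22 bases at their starts. Col4a4 (minus strand, chr1:82448423-82586849) and Col4a3 (plus strand, chr1:82586921-82722059) are separated by 71 bases. Col4a6 (minus strand, chrX:141165403-141474076) and Col4a5 (plus strand, chrX:141475385-141689234) are 1308 bases apart. The whole stretch between Col4a4 and Col4a3 is shown because both genes fell together in KI, and the 250 bases upstream of 3 further genes because Col3a1 rose in every group with Cre, Col13a1 was the 1 collagen gene that differed between the 2 single knockouts and Col10a1 had the largest fold change. Sequences are from RefSeq promoter windows on GRCm38.p6, 5′ to 3′ on the strand named. Capitals mark the TATA box letters TATAAA, and the stretch between Col4a4 and Col4a3 held none of the motifs searched.
Col4a4 to Col4a3 (chr1:82586850-82586920, plus strand): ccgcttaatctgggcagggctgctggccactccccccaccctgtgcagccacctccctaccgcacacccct
Col3a1 (chr1:45311288-45311537, plus strand): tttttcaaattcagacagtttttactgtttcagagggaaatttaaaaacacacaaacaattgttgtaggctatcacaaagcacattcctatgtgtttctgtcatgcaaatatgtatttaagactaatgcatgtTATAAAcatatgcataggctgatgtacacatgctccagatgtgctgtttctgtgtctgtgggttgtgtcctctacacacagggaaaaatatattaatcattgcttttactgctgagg
Col13a1 (chr10:61979109-61979358, minus strand): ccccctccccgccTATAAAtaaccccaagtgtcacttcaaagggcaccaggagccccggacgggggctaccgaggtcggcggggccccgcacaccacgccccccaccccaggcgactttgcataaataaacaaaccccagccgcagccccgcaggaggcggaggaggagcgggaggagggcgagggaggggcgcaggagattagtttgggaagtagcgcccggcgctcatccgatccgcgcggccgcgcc
Col10a1 (chr10:34389731-34389980, plus strand): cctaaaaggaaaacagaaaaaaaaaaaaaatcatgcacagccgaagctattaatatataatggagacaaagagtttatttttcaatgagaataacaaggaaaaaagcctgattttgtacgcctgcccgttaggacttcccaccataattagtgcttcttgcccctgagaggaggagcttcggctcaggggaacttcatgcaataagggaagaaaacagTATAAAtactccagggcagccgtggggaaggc

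The stretch between Col4a4 and Col4a3 was 69.0% G and C, the Col13a1 stretch 68.8%, the Col10a1 stretch 41.6% and the Col3a1 stretch 35.2%, and none overlapped an annotated exon. RefSeq windows matched 35 of the 44 genes, with 38 windows. On either strand of the 250 bases upstream, the E-box letters CACGTG, a site that TFE3 and its relatives bind, were in 0 of the 38 collagen windows and in 6.02% of all 32851 windows. For this family the paper names the M-box TCAYRTGA, where Y is C or T and R is A or G. Its forms without CACGTG were not searched. ACGTG, the core of the hypoxia response element, which any CACGTG also contains, was in 13.2% of collagen windows and 16.6% of all windows. TATAAA was in 13.2% against 12.4%, CCAAT in 34.2% against 33.8%, and GGGCGG, the GC box, in 57.9% against 32.7%. A match is only a run of letters in this window, and its absence says nothing of binding elsewhere.

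PRCC-TFE3 KI kidneys were compared with Cre(−) kidneys to see how collagen expression differed once the fusion was switched on. The Cre transgene differs along with the fusion, and the 2 cannot be told apart here. Of the 44 genes, 39 had enough counts to be tested, and 29 passed an adjusted p of 0.05, 19 higher and 10 lower in KI. Across all 17011 genes tested, 60.9% passed, 31.6% higher and 29.3% lower, against 74.4% of the collagen genes, 48.7% higher and 25.6% lower. Their median log2 fold change was 0.39, beside 0.03 for all genes. Every KI kidney was above every Cre(−) kidney in 13 of the 39 and below in 10, or 33.3% and 25.6%, where all genes gave 28.9% and 27.7%. With libraries scaled to total counts alone, the split over all genes was 8546 higher and 2991 lower in place of 5381 and 4981. All 10 fibrillar genes tested passed, 8 of them higher, while the 8 basement membrane genes split into 2 higher, 3 lower and 3 that did not pass, and the 21 other genes tested into 9, 5 and 7. In fits that each left out 1 library, 22 of the 29 calls always held.

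**Figure D1:**
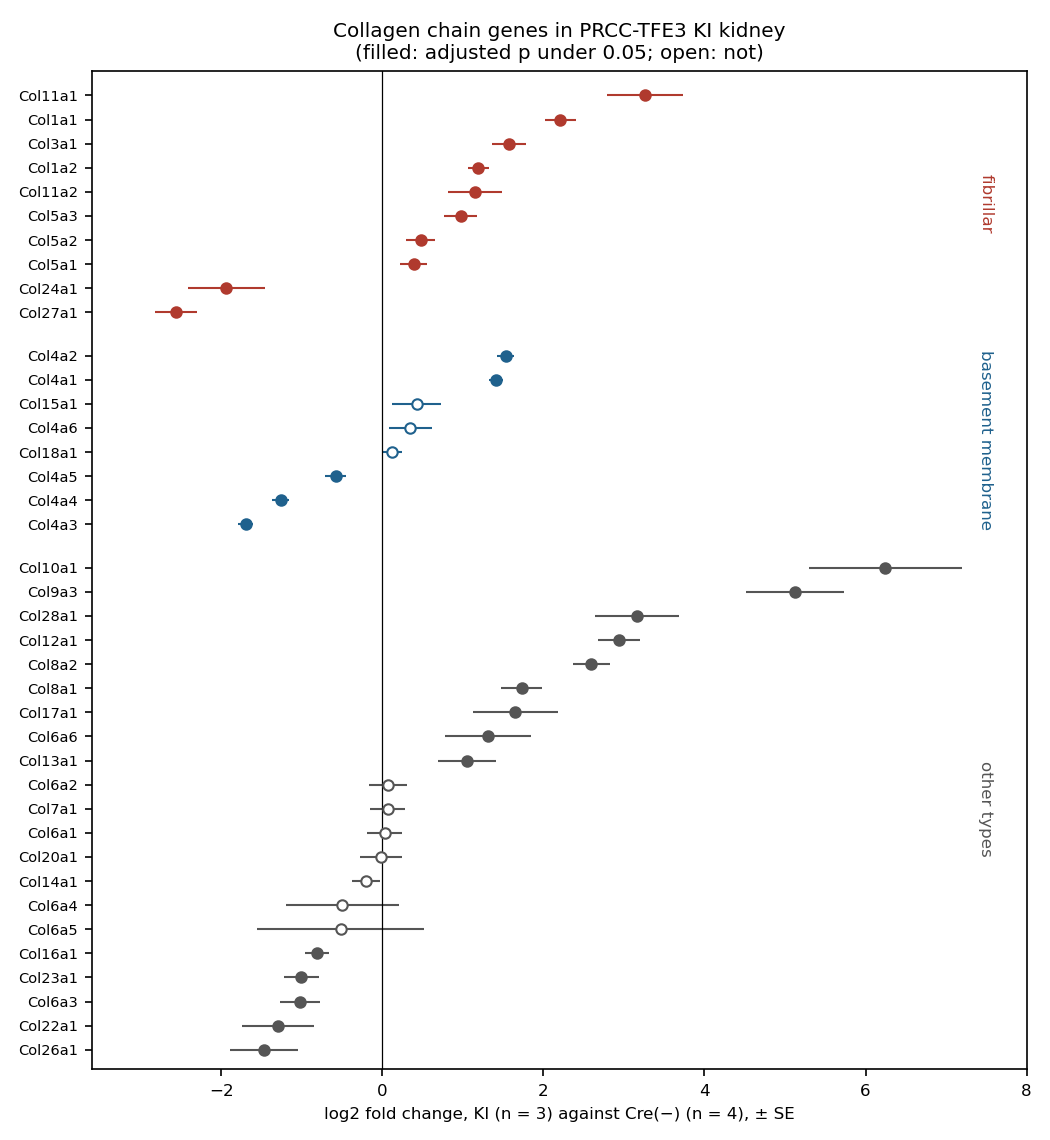
Log2 fold change (x axis, ± SE) of each of the 39 tested collagen genes in KI kidneys (n = 3) against Cre(−) kidneys (n = 4), grouped by class, with filled points for edgeR adjusted p under 0.05. Fibrillar genes lie mostly to the right, and basement membrane genes run from 1.53 for Col4a2 to -1.70 for Col4a3.

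Collagen I, the main fibril of scar tissue, is built from Col1a1 and Col1a2. In Cre(−), Col1a1 stood at 22.6, 13.3, 15.0 and 18.3 CPM, and in KI at 104, 77.3 and 59.6 CPM. Its log2 fold change was 2.21 ± 0.19 (SE, edgeR adjusted p = 1.45e-07), or 4.64-fold. Col1a2 went from 47.4, 38.2, 48.1 and 54.4 CPM to 113, 112 and 97.2 CPM, a log2 fold change of 1.20 ± 0.13 (SE, edgeR adjusted p = 1.34e-06). Col3a1, which co-assembles with collagen I in soft tissue, had 46.3, 24.7, 26.7 and 35.4 CPM in Cre(−) and 119, 94.5 and 83.3 CPM in KI, a log2 fold change of 1.57 ± 0.21 (SE, edgeR adjusted p = 8.77e-06). For these 3 genes every KI kidney was above every Cre(−) kidney. Per length, Col1a1 was 0.314 ± 0.054 of Col1a2 in TPM, which corrects for transcript length (SD, n = 4) in Cre(−) and 0.648 ± 0.138 (SD, n = 3) in KI, so the Col1a1 chain rose by more than its partner.

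Type V and XI chains, which seed and limit the width of fibrils, rose less evenly. Col5a3 had 4.76 to 8.08 CPM in Cre(−) and 16.1, 10.4 and 8.73 CPM in KI (log2 fold change 0.97 ± 0.21 SE, edgeR adjusted p = 0.000844). Col5a1 (log2 fold change 0.39 ± 0.16 SE, edgeR adjusted p = 0.0498) and Col5a2 (0.48 ± 0.18 SE, edgeR adjusted p = 0.0339) passed with overlapping groups. Col5a1 no longer passed when any of 5 libraries was left out (Cre(−) replicates 1, 2 and 3, KI replicates 1 and 2; adjusted p up to 0.183), and Col5a2 when any of 4 was (Cre(−) replicates 2, 3 and 4, KI replicate 3; up to 0.264). Col11a1, best known from cartilage, had 0.617, 0.375, 1.46 and 1.33 CPM in Cre(−) and 8.68, 13.0 and 5.19 CPM in KI, a log2 fold change of 3.26 ± 0.47 (SE, edgeR adjusted p = 2.32e-05). Col11a2 rose by a log2 fold change of 1.16 ± 0.33 (SE, edgeR adjusted p = 0.00736), although KI replicate 1, at 1.49 CPM, lay within the Cre(−) range, and without KI replicate 3 the adjusted p was 0.0699. The Col11a2 call was also lost by limma on TPM and against only the Cre(−) kidneys without floxed Hif1α (limma or edgeR adjusted p up to 0.177).

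The 2 fibrillar genes that fell were Col27a1 and Col24a1, chains of the vertebrate fibrillar collagens with a shorter triple helix. Col27a1 dropped from 83.2, 108, 137 and 117 CPM in Cre(−) to 22.2, 15.6 and 18.9 CPM in KI. That was a log2 fold change of -2.56 ± 0.26 (SE, edgeR adjusted p = 5.59e-07), and no kidney of one group reached the other. By TPM, Col27a1 was the most abundant fibrillar chain in Cre(−) kidneys, at a mean of 22.2 against 10.2 for Col1a2 (n = 4). Col24a1 was near the limit of counting, with 1.66 to 2.38 CPM in Cre(−) and 0.747, 0.431 and 0.285 CPM in KI (log2 fold change -1.93 ± 0.48 SE, edgeR adjusted p = 0.00258). Its call was lost by limma on TPM (limma adjusted p up to 0.344), and the groups overlapped in TPM. Cartilage collagen Col2a1 had at most 2 counts in any of the 17 libraries.

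Type IV chains moved in opposite directions, and in the Col4a1/Col4a2 and Col4a3/Col4a4 pairs both genes moved the same way. Col4a1 went from 258, 239, 250.3 and 249 CPM in Cre(−) to 694, 616 and 681 CPM in KI, and Col4a2 had 206, 187, 205 and 212 against 594, 537 and 626 CPM. Their log2 fold changes were 1.41 ± 0.09 and 1.53 ± 0.10 (SE, edgeR adjusted p = 5.38e-09 and 1.28e-08). Col4a3 had 545, 523, 613 and 571 CPM in Cre(−) and 170.5, 182 and 169 CPM in KI, and Col4a4 had 408, 432, 473 and 451 against 178, 177 and 198 CPM. Their log2 fold changes were -1.70 ± 0.10 and -1.26 ± 0.10 (SE, edgeR adjusted p = 2.69e-09 and 8.05e-08). In none of these 4 genes did the groups overlap, and all 4 calls held in every alternative fit.

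Within the pairs the chains did not keep an exact ratio. Col4a3 stood at 1.45 ± 0.06 times Col4a4 by TPM (SD, n = 4) in Cre(−) and at 1.10 ± 0.10 (SD, n = 3) in KI, with no overlap, as Col4a3 fell by more. Col4a1 had several short annotated transcripts, and the full-length one carried 34.1% ± 8.3 of the gene's TPM in Cre(−) and 36.7% ± 0.3 in KI, so ratios to Col4a1 were taken per kilobase of the longest transcript. On that scale Col4a1 was 1.20 ± 0.04 times Col4a2 (SD, n = 4) in Cre(−) and 1.11 ± 0.04 (SD, n = 3) in KI. Col4a5, the third chain of the glomerular network, had 47.6, 51.4, 57.8 and 53.2 CPM in Cre(−) and 35.0, 33.7 and 36.8 CPM in KI, a log2 fold change of -0.58 ± 0.13 (SE, edgeR adjusted p = 0.000951), whereas its neighbour Col4a6, found in smooth muscle and some epithelial basement membranes, had only 2.47 to 3.28 and 2.97 to 3.93 CPM (log2 fold change 0.35 ± 0.27 SE, edgeR adjusted p = 0.279). The fall of Col4a5 rests on the scaling. With libraries scaled to total counts alone its log2 fold change was -0.24 (edgeR adjusted p = 0.129), where the median of all genes was 0.37 in place of 0.03.

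**Figure D2:**
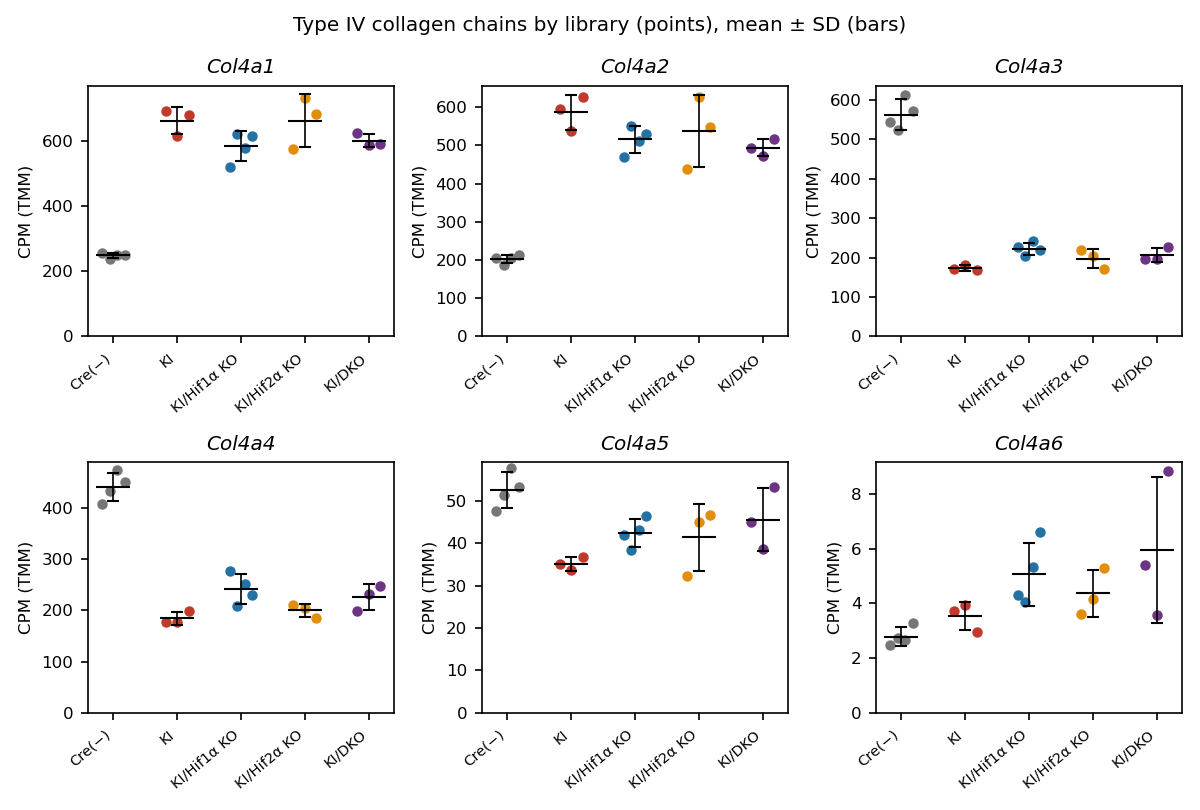
TMM-scaled CPM (y axis, from 0) of the 6 type IV chains in each of the 17 kidneys, as points, with the mean and SD of each group. Col4a1 and Col4a2 are higher and Col4a3, Col4a4 and Col4a5 lower in KI than in Cre(−), and the knockout groups stay nearer to KI than to Cre(−) for the first 4 chains.

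Shares of summed collagen expression give the same exchange within a library. Basement membrane genes held 74.3% ± 1.4 of all collagen TPM in Cre(−) kidneys (SD, n = 4) and 72.7% ± 1.0 in KI kidneys (SD, n = 3), overlapping ranges. By counts per kilobase of the longest transcript the shares were 75.4% ± 2.0 and 70.6% ± 1.4, with every KI kidney below every Cre(−) kidney. By TPM, Col4a1 and Col4a2 together rose from 25.7% ± 0.5 to 49.2% ± 2.3, while Col4a3 and Col4a4 together went from 27.8% ± 1.6 to 6.99% ± 0.71. The ratio of the first pair to the second was 0.929 ± 0.059 in Cre(−) and 7.08 ± 0.58 in KI by TPM, and 0.632 ± 0.039 and 4.96 ± 0.36 by counts per kilobase of the longest transcript. These are shares within a library and do not depend on scaling between libraries. Fibrillar genes held 13.1% ± 0.7 and 13.7% ± 0.6 by TPM, overlapping, but 13.1% ± 0.6 and 16.3% ± 1.2 by counts per kilobase, with no overlap. Types I and III within them went from 5.22% ± 0.71 to 10.1% ± 1.0 of TPM, beside the fall of Col27a1.

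**Figure D3:**
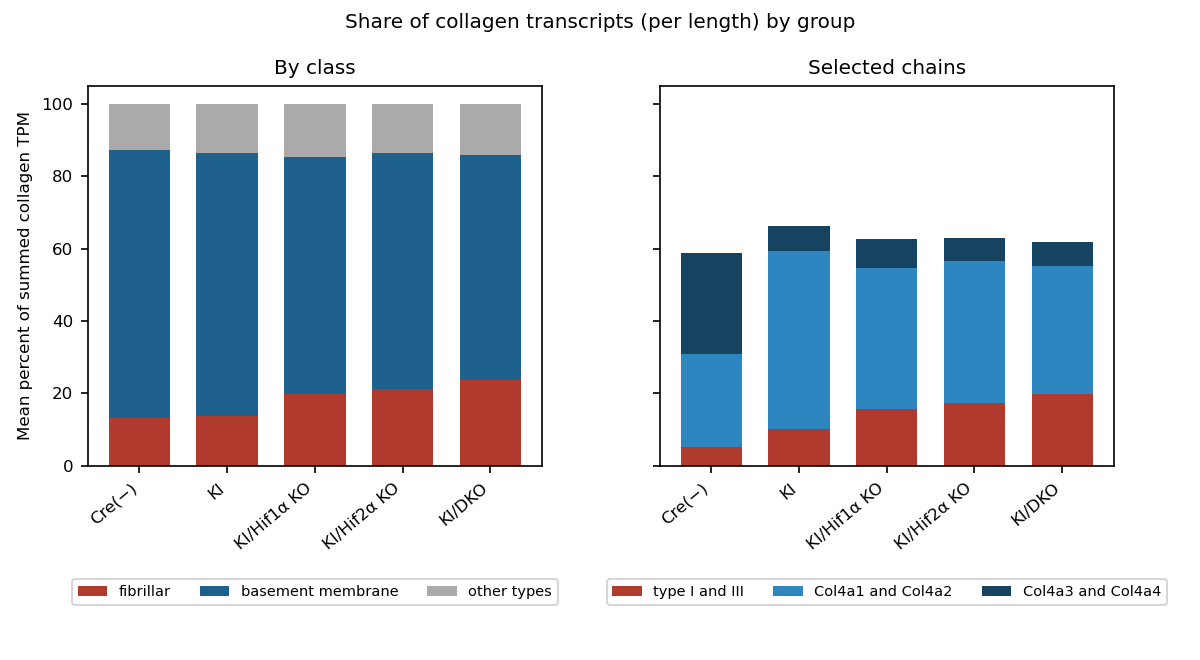
Mean share of summed collagen TPM (y axis, percent) in each of the 5 groups, by class on the left and for selected chains on the right. The basement membrane share is 74.3% in Cre(−) and 72.7% in KI, while within it Col4a3 and Col4a4 shrink from 27.8% to 6.99%.

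Col18a1 and Col15a1, the basement membrane collagens with sugar chains, did not pass. Col18a1 had 278 to 295 CPM in Cre(−) and 385, 256 and 301 CPM in KI (log2 fold change 0.13 ± 0.12 SE, edgeR adjusted p = 0.374), and Col15a1 had 17.6 to 36.2 CPM and 62.3, 37.6 and 19.3 CPM (0.43 ± 0.31 SE, edgeR adjusted p = 0.239). The KI kidneys were spread wider than the Cre(−) kidneys in both genes, with replicate 1 the highest. The Col18a1 transcript that starts farthest upstream carried 78.5% ± 4.2 of the gene's TPM in Cre(−) and 71.4% ± 1.0 in KI, so it was the main form in both. It spans the longest stretch of the genome, which is not the length of its RNA or protein.

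Podocyte markers moved with the fall of Col4a3, Col4a4 and Col4a5. Of 8 podocyte genes, 6 fell and 1 rose in KI, where 60.9% of all genes passed, 31.6% higher and 29.3% lower. The 8 podocyte genes had a median log2 fold change of -1.79, and their summed level was 731 to 828 CPM in Cre(−) and 236 to 325 CPM in KI. The slit diaphragm gene Nphs1 had a log2 fold change of -2.82 and remained above 0 in every library. All 10 proximal tubule markers and 9 of 10 distal nephron markers fell too, and 8 of 10 endothelial markers fell, with sums of 683 to 1015 CPM in Cre(−) and 543 to 568 CPM in KI. The part of these markers in the type IV result was not tested.

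Outside the fibrillar and basement membrane classes the largest changes were in genes that Cre(−) kidneys hardly expressed. Col10a1, the hypertrophic cartilage collagen, had 0 to 2 counts in each Cre(−) library and 12.6, 1.78 and 1.26 CPM in KI. Pooled over libraries its ratio was 82.5, with an exact 95% interval of 31.9 to 305 that covers counting error only, and the highest KI kidney stood far above the other 2. It lies wholly inside Nt5dc1, which is on the opposite strand. Col9a3, a FACIT chain of cartilage, had 0.428 to 0.631 CPM in Cre(−) and 31.1, 13.6 and 13.4 CPM in KI, a log2 fold change of 5.13 ± 0.61 (SE, edgeR adjusted p = 3.15e-06). Its partner chains were not expressed at that level, since Col9a1 had at most 1 count and Col9a2 at most 7 counts in any library.

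Among the other genes of this class that rose, Col12a1, a FACIT chain that decorates type I fibrils in tissue under strain, had 19.7, 15.3, 19.9 and 19.9 CPM in Cre(−) and 88.1, 136 and 205 CPM in KI (log2 fold change 2.94 ± 0.26 SE, edgeR adjusted p = 1.60e-07). The endothelial and mesenchymal network collagens Col8a1 and Col8a2 rose by log2 fold changes of 1.73 ± 0.26 and 2.59 ± 0.23 (SE, edgeR adjusted p = 2.69e-05 and 1.43e-07), and Col8a2 had 0.379 to 0.823 CPM in Cre(−) against 4.02, 3.39 and 3.77 CPM in KI. Col28a1, with 3 to 5 counts in each Cre(−) library, rose by 3.16 ± 0.53 (SE, edgeR adjusted p = 8.84e-05). Col17a1 (1.65 ± 0.53 SE), Col13a1 (1.05 ± 0.36 SE) and Col6a6 (1.32 ± 0.53 SE) also passed, with edgeR adjusted p of 0.0130, 0.0198 and 0.0430 and overlapping groups. Each of these 3 lost its call without 1 or more single libraries, with adjusted p up to 0.0698 for Col17a1 (without KI replicate 2), 0.150 for Col13a1 (Cre(−) replicate 2 or KI replicate 3) and 0.166 for Col6a6 (any of Cre(−) replicates 1, 2 and 3 and KI replicates 1 and 2).

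Type VI collagen, the beaded microfibril around cells, is built from Col6a1, Col6a2 and a further chain, most often Col6a3. In Cre(−) and KI kidneys Col6a1 had 23.4 to 39.6 and 27.6 to 36.4 CPM and Col6a2 13.6 to 26.8 and 18.3 to 27.4 CPM, ranges that overlapped. Col6a3, by contrast, had 31.3, 29.2, 44.0 and 42.7 CPM in Cre(−) and 23.5, 18.7 and 12.2 CPM in KI, a log2 fold change of -1.02 ± 0.25 (SE, edgeR adjusted p = 0.00200). Col26a1 (-1.47 ± 0.42 SE), Col22a1 (-1.29 ± 0.44 SE), the transmembrane Col23a1 and the FACIT Col16a1 (-0.81 ± 0.14 SE) were lower as well, with edgeR adjusted p of 0.00706, 0.0200, 0.000991 and 0.000173, and Col23a1 was 2.00-fold lower. By limma on TPM the calls for Col6a3, Col23a1, Col26a1 and Col22a1 were lost (adjusted p up to 0.137, 0.143, 0.0830 and 0.350), and Col6a3 overlapped between the groups. For Col16a1 the direction also turned on TPM, where its log2 fold change was 0.07 (limma adjusted p = 0.795). Its call held with libraries scaled to total counts alone. The call for Col22a1 was also lost with total counts and without KI replicate 2 or KI replicate 3 (edgeR adjusted p up to 0.0837).

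Genes that make, trim and crosslink collagen were counted from fixed lists, to be read against the 60.9% of all genes that passed in this comparison, 31.6% higher and 29.3% lower. Of 20 genes for modification in the endoplasmic reticulum, 9 rose and 1 fell, led by the collagen galactosyltransferase Colgalt2 (log2 fold change 2.16) and the prolyl hydroxylase P3h2 (-1.84). Of 14 tested processing and crosslinking genes, 9 rose and 3 fell, with the lysyl oxidases Lox (3.51) and Loxl2 (1.99) the largest. Of 13 proteoglycans and glycoproteins that bind fibrils, 9 rose and 0 fell, among them Tnc (4.10), Thbs2 (2.46) and Postn (2.43). Basement membrane partners gave 10 higher and 3 lower of 16, with Egfl6 at -1.88 and the laminin chain Lamb3 at 1.51, and of 9 collagen receptors 5 rose and 1 fell, led by the fibroblast integrin Itga11 (1.98). The list medians ran from 0.21 to 1.49, beside 0.03 for all genes.

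Against the same background of 60.9%, 4 of 9 tested fibroblast and pericyte genes rose and 2 fell, with sums of 391 to 443 CPM in Cre(−) and 539 to 575 CPM in KI, and 4 of 8 tested myofibroblast and smooth muscle genes rose and 0 fell. Of 8 macrophage markers 7 rose, with sums of 185 to 252 CPM in Cre(−) and 1717 to 1884 CPM in KI. Most of the KI sum was Cd68 alone, which had 3.24 to 5.76 CPM in Cre(−) and 1061 to 1151 CPM in KI. Csf1r did not rise, with 89.2 to 101 CPM in Cre(−) and 82.8 to 84.6 CPM in KI. Of the 8 adipocyte markers 4 rose, with KI replicate 2 far above the rest; without that kidney 25 collagen genes passed. Their part in the collagen changes was not tested.

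Each knockout group was then compared with KI, to see how collagen expression stood once a Hif gene had been floxed in the same epithelium. Against KI, the tested collagen genes that passed were 6 in KI/Hif1α KO, 4 in KI/Hif2α KO and 16 in KI/DKO. Over all genes tested, 5.44%, 1.39% and 12.7% passed, with 2.57%, 0.741% and 6.53% higher and 2.86%, 0.647% and 6.19% lower. The collagen genes called higher were 15.4%, 7.69% and 41.0% of those tested, and only 1 gene, Col13a1 in KI/Hif2α KO, was called lower. At an unadjusted p under 0.05 there were 17, 18 and 26 collagen genes, and the number over all genes was not counted. DESeq2 called 11, 14 and 19 collagen genes, beside 1664, 1015 and 2897 of all 17011 genes. Every knockout kidney was above every KI kidney in 17, 13 and 20 collagen genes, against 8.96%, 9.52% and 16.5% of all genes, and below in 0, 1 and 1, against 10.3%, 10.7% and 17.2%. These 3 comparisons share the KI kidneys, so they are not independent of each other. Median log2 fold changes of the collagen genes were 0.39, 0.39 and 0.66, beside medians of -0.0028, -0.0069 and -0.0031 for all genes.

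**Figure D4:**
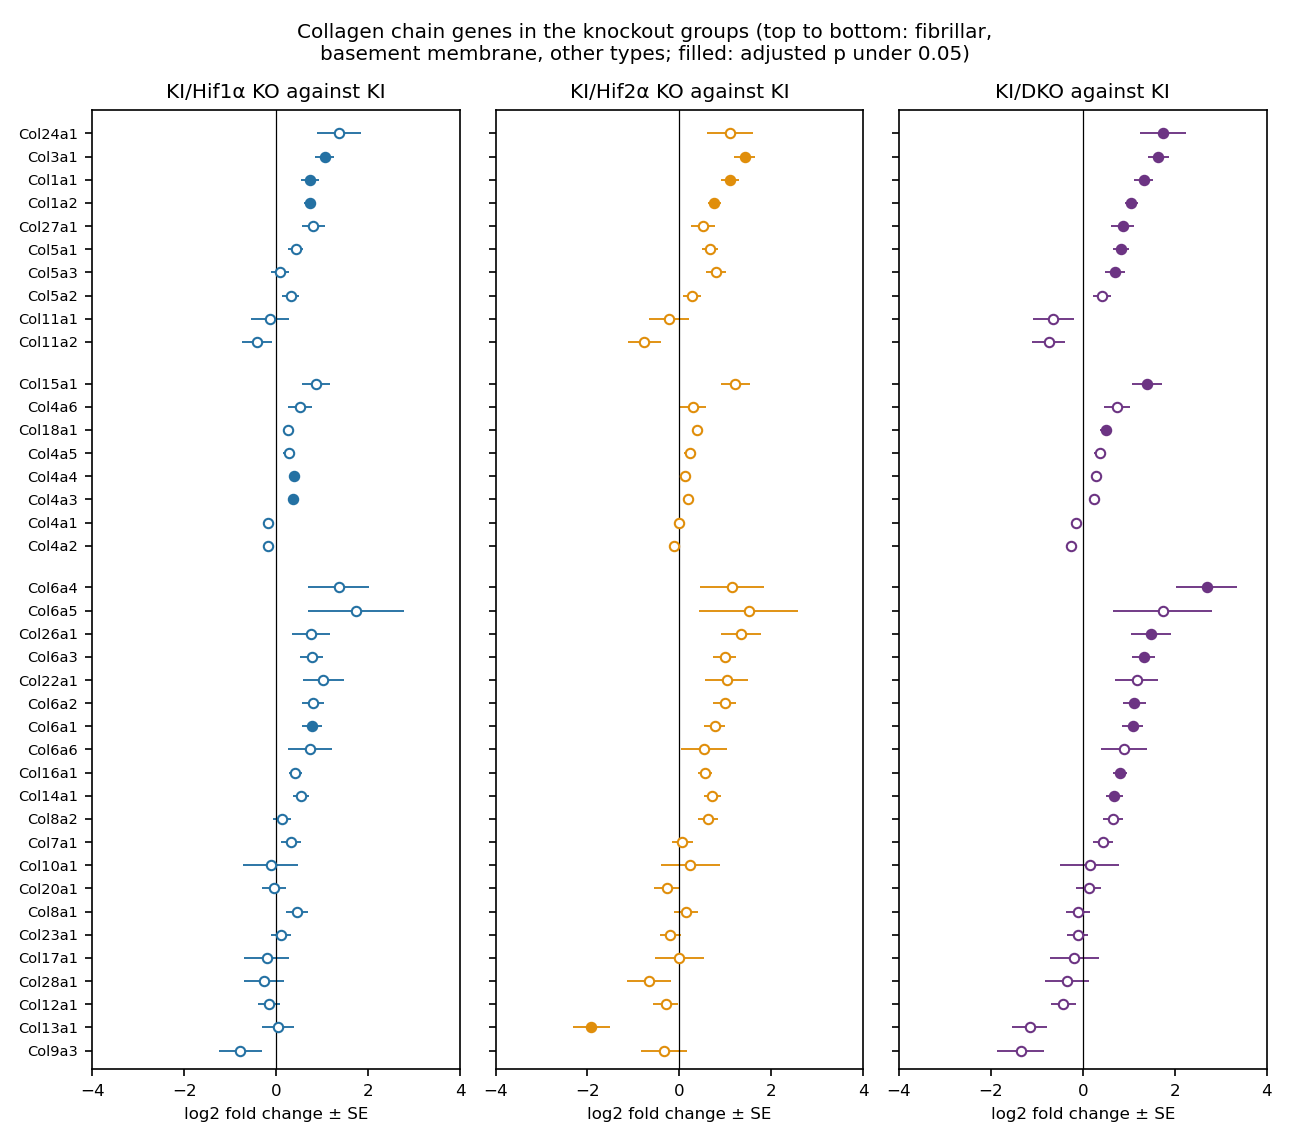
Log2 fold change (x axis, ± SE) of the 39 tested collagen genes in KI/Hif1α KO (n = 4), KI/Hif2α KO (n = 3) and KI/DKO (n = 3) kidneys, each against the same 3 KI kidneys, with filled points for edgeR adjusted p under 0.05. Col1a1, Col1a2 and Col3a1 are filled to the right of 0 in all 3 panels, and Col13a1 is filled to the left in the KI/Hif2α KO panel.

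Types I and III were higher than in KI in all 3 knockout groups. Col3a1 had 215, 209.6, 229.9 and 168 CPM in KI/Hif1α KO, 246, 249.9 and 298 CPM in KI/Hif2α KO and 231, 371 and 325 CPM in KI/DKO, against 119, 94.5 and 83.3 CPM in KI. Its log2 fold changes were 1.06 ± 0.21, 1.42 ± 0.22 and 1.64 ± 0.22 (SE, edgeR adjusted p = 0.0136, 0.0137 and 0.00149). Col1a2 had 161 to 192, 166 to 193 and 180.1 to 268 CPM in the 3 groups, with log2 fold changes of 0.74 ± 0.13, 0.76 ± 0.14 and 1.06 ± 0.14 (SE, edgeR adjusted p = 0.00870, 0.0214 and 0.00128). Col1a1 had 115 to 153, 148 to 188 and 171 to 233 CPM, with log2 fold changes of 0.73 ± 0.19, 1.10 ± 0.20 and 1.32 ± 0.20 (SE, edgeR adjusted p = 0.0371, 0.0213 and 0.00209). In each of the 9 comparisons no knockout kidney overlapped a KI kidney.

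The share of types I and III in collagen TPM followed. It was 10.1% ± 1.0 in KI (SD, n = 3), 15.8% ± 1.1 in KI/Hif1α KO (SD, n = 4), 17.4% ± 1.7 in KI/Hif2α KO (SD, n = 3) and 19.8% ± 3.0 in KI/DKO (SD, n = 3), while the basement membrane share was 72.7%, 65.4%, 65.1% and 62.0%. Col1a2 and Col3a1 in KI/Hif1α KO, and Col1a1, Col1a2 and Col3a1 in KI/DKO, held in every fit that left out 1 library. In KI/Hif1α KO, Col1a1 lost its call without any of KI replicates 2 and 3 and KI/Hif1α KO replicates 1, 2 and 3 (edgeR adjusted p up to 0.131). In KI/Hif2α KO, Col3a1 lost it without KI replicate 3 (0.0740), Col1a2 without KI replicate 3 or KI/Hif2α KO replicates 2 or 3 (up to 0.123) and Col1a1 without any of those or KI replicate 2 (up to 0.121). The number of collagen genes passing in KI/Hif2α KO was 0 without KI replicate 3, 1 without KI/Hif2α KO replicate 2 or 3, 2 without KI replicate 2 and 13 without KI replicate 1. Over all genes, 13 passed without KI replicate 3 and 857 without KI replicate 1, in place of 236.

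**Figure D5:**
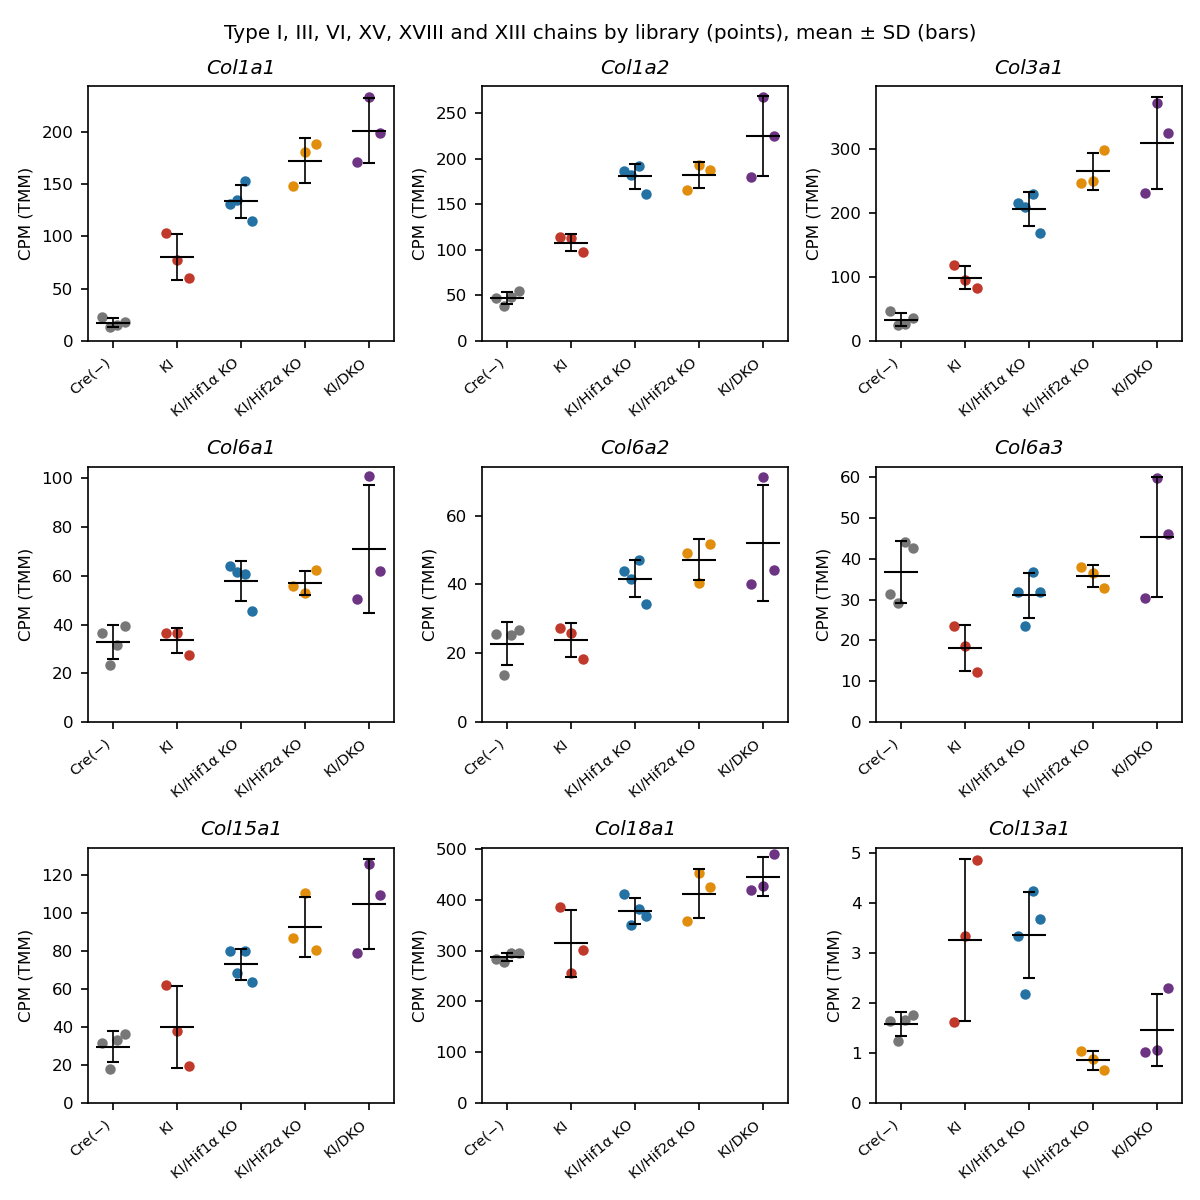
TMM-scaled CPM (y axis, from 0) of 9 collagen genes in each of the 17 kidneys, as points, with the mean and SD of each group. Col1a1, Col1a2 and Col3a1 step up from Cre(−) to KI and again in the knockout groups, Col6a1 and Col6a2 are level between Cre(−) and KI, and Col13a1 is lowest in KI/Hif2α KO.

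In KI/Hif1α KO kidneys the other genes that passed were Col6a1, Col4a3 and Col4a4, all higher. Col6a1 had 64.0, 61.4, 60.8 and 45.7 CPM against 36.4, 36.4 and 27.6 CPM in KI (log2 fold change 0.79 ± 0.22 SE, edgeR adjusted p = 0.0456). Col4a3 and Col4a4 rose by log2 fold changes of 0.36 ± 0.09 and 0.39 ± 0.10 (SE, edgeR adjusted p = 0.0376 and 0.0371), with all 4 kidneys above all 3 KI kidneys in both. Col4a1 (-0.18 ± 0.09 SE) and Col4a2 (-0.18 ± 0.10 SE) did not pass, with edgeR adjusted p of 0.244 and 0.322. The calls for Col6a1, Col4a3 and Col4a4 each failed in 6 of the 7 fits that left out a library, with adjusted p up to 0.148. Without KI replicate 2, without KI replicate 3, or without KI/Hif1α KO replicate 1 or 3, only 2 collagen genes passed. Over all genes 361, 514, 308 and 273 passed in those fits in turn, in place of 925.

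In KI/DKO kidneys 16 genes were higher than in KI and 0 lower by edgeR, with 26 at an unadjusted p under 0.05 and 1 called lower by DESeq2. They were 7 of 10 fibrillar, 2 of 8 basement membrane and 7 of 21 other genes tested. Of the 6 type VI chains 4 rose and 2, Col6a5 and Col6a6, did not pass. Col6a1, Col6a2 and Col6a3 had log2 fold changes of 1.09 ± 0.23, 1.12 ± 0.25 and 1.32 ± 0.26 (SE, edgeR adjusted p = 0.00912, 0.0110 and 0.00594), and Col6a4, low in every group, 2.69 ± 0.67 (SE, edgeR adjusted p = 0.0182). KI/DKO replicate 2 was the highest kidney in these 4 genes, at 101 CPM for Col6a1 against 50.5 and 61.9 CPM in the other KI/DKO kidneys. Without it 8 collagen genes passed in place of 16, as also without KI replicate 3. Over all genes, 722 passed without KI/DKO replicate 2 and 915 without KI replicate 3, in place of 2164. Col6a1 and Col6a3 kept their calls without either, whereas Col6a2 and Col6a4 did not (edgeR adjusted p up to 0.0622 and 0.0893).

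Col15a1 had 79.1, 126 and 109.5 CPM in KI/DKO, a log2 fold change of 1.40 ± 0.33 over KI (SE, edgeR adjusted p = 0.0137), which became 0.0623 without KI/DKO replicate 2. Col18a1 had 419, 428 and 489.8 CPM, every value above those of KI (log2 fold change 0.50 ± 0.13 SE, edgeR adjusted p = 0.0194), a call lost without any of KI replicates 2 and 3 and KI/DKO replicates 2 and 3 (up to 0.0874). Among fibrillar genes, Col5a1 rose by 0.84 ± 0.17 (SE, edgeR adjusted p = 0.00793) and held in every fit. Col5a3 (0.71 ± 0.22 SE), Col27a1 (0.87 ± 0.26 SE) and Col24a1 (1.75 ± 0.50 SE), with edgeR adjusted p of 0.0433, 0.0397 and 0.0334, each lost the call without any of those same 4 libraries (up to 0.183). All 3 also lost it with only the 2 groups fitted and with the replicate number as a block. Col24a1 lost it by limma on TPM too, and over these settings its edgeR or limma adjusted p reached 0.659. The FACIT genes Col14a1 (0.69 ± 0.18 SE) and Col16a1 (0.81 ± 0.15 SE) and Col26a1 (1.48 ± 0.44 SE) completed the list (edgeR adjusted p = 0.0254, 0.00520 and 0.0386). Col26a1 lost its call without any of the same 4 libraries (up to 0.139), and Col14a1 without KI replicate 1 or 3 or KI/DKO replicate 2 (up to 0.131).

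Of these 16 genes, 5 had also been called higher in KI than in Cre(−), namely Col1a1, Col1a2, Col3a1, Col5a1 and Col5a3, and another 5 had been called lower there, namely Col6a3, Col16a1, Col24a1, Col26a1 and Col27a1. Both comparisons use the KI kidneys, so an extreme KI value would move both. Col4a1 (-0.14 ± 0.09 SE) and Col4a2 (-0.25 ± 0.11 SE) did not pass in KI/DKO against KI, with edgeR adjusted p of 0.344 and 0.158.

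In the fixed lists, KI/DKO against KI, where 12.7% of all genes passed (6.53% higher and 6.19% lower), gave 2 higher and 3 lower of 20 modification genes, 2 higher and 4 lower of 14 processing and crosslinking genes, 3 higher of 13 fibril-binding genes, 3 higher of 16 basement membrane partners and 1 higher of 9 receptors. The genes that fell included Colgalt2 (log2 fold change -1.57) and Loxl4 (-1.07), and those that rose included Lum (1.49), Mrc2 (0.91), which takes up collagen fragments, and Fkbp10 (0.89). In KI/Hif1α KO, 4 genes of these lists passed, all lower, at -1.37 for Colgalt2, -1.03 for Loxl4, -0.79 for P4ha1, a catalytic chain of collagen prolyl hydroxylase and a textbook target of HIF, and -0.78 for Pcolce2, an enhancer of procollagen trimming. In KI/Hif2α KO only Pxdn passed, the peroxidase that crosslinks type IV collagen, at 1.04. Of 9 tested fibroblast and pericyte markers, 5 were higher in KI/DKO than in KI (Lum, Gucy1a1, Tcf21, Pdgfrb and Cd34), against 0 in KI/Hif1α KO, where Cxcl12 was lower, and 0 in KI/Hif2α KO. Their sums were 483 to 708 CPM in KI/DKO, 486 to 542 in KI/Hif1α KO and 471 to 589 in KI/Hif2α KO, against 539 to 575 in KI, and their part in the rise of types I, III and VI was not tested. Epithelial markers moved in the same comparisons. Of 10 proximal tubule markers, 4 passed as higher in KI/Hif1α KO, 0 in KI/Hif2α KO and 6 in KI/DKO, and of 10 distal nephron markers 3 did in KI/Hif1α KO, 1 in KI/Hif2α KO and 6 in KI/DKO. Over all genes 5.44%, 1.39% and 12.7% passed in these 3 groups, with 2.57%, 0.741% and 6.53% higher. Proximal tubule sums in the 3 knockout groups were 1606 to 3830 CPM, 1165 to 3149 CPM and 2092 to 3625 CPM, and distal nephron sums 3568 to 6509 CPM, 3251 to 5287 CPM and 4305 to 6496 CPM, against 1060 to 1382 and 1887 to 2806 CPM in KI. Their part in the changes against KI, among them the rise of Col4a3 and Col4a4 in KI/Hif1α KO, was not tested.

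Whether the loss of Hif1α and of Hif2α differed was tested directly, with KI/Hif1α KO against KI/Hif2α KO. Of the 39 collagen genes 1 passed, higher in KI/Hif1α KO, beside 0.429% of all genes tested, 0.329% higher and 0.0999% lower, and 4 had an unadjusted p under 0.05. This was Col13a1, a transmembrane collagen of cell adhesions, which had 3.35, 2.18, 4.23 and 3.67 CPM in KI/Hif1α KO and 1.04, 0.875 and 0.658 CPM in KI/Hif2α KO, a log2 difference of 1.96 ± 0.39 (SE, edgeR adjusted p = 0.0403). Against KI, at 1.61, 3.34 and 4.85 CPM, it fell in KI/Hif2α KO by a log2 fold change of -1.92 ± 0.40 (SE, edgeR adjusted p = 0.0337). In KI/DKO it had 1.02, 1.05 and 2.29 CPM (-1.16 ± 0.39 SE, edgeR adjusted p = 0.0625), where KI/DKO replicate 3 lay above the lowest KI kidney. At these levels 1 library decides the call: the direct difference no longer passed without any of KI/Hif1α KO replicates 1, 3 and 4 or KI/Hif2α KO replicates 2 and 3 (edgeR adjusted p up to 0.209), and the fall against KI passed only when KI replicate 1 was the library left out, with adjusted p up to 0.178 without any of the others.

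For types I and III, which rose in both single knockouts, no gene passed the direct test. The log2 difference between KI/Hif1α KO and KI/Hif2α KO was -0.37 ± 0.19 for Col1a1, -0.01 ± 0.13 for Col1a2 and -0.36 ± 0.20 for Col3a1 (SE, edgeR adjusted p = 0.365, 0.972 and 0.422), with 95% intervals of -0.77 to 0.02, -0.29 to 0.26 and -0.79 to 0.07. These intervals do not show that the 2 knockouts act alike. For Col5a3 the difference was -0.72 ± 0.20 (SE, edgeR adjusted p = 0.106), and every KI/Hif1α KO kidney, at 10.5 to 14.0 CPM, was below every KI/Hif2α KO kidney, at 20.3 to 20.8 CPM. Such separation, in 1 direction, occurred in 8.31% (higher) and 6.75% (lower) of all genes.

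Against Cre(−), 29, 28 and 29 collagen genes passed in KI/Hif1α KO, KI/Hif2α KO and KI/DKO, of which 23, 23 and 25 were higher. Across all genes tested 61.9%, 61.9% and 58.3% passed, with 31.9%, 32% and 30.4% higher and 30.1%, 29.9% and 27.9% lower. These comparisons share the Cre(−) kidneys with that of KI. In all 4 groups with Cre, 17 collagen genes were called higher than in Cre(−) and 4 lower, the latter Col4a3, Col4a4, Col27a1 and Col23a1. Col15a1, Col18a1, Col4a6, Col6a1 and Col6a2 were called higher in all 3 knockout groups though not in KI. How many of all genes show these joint patterns was not counted, and the shares above are for single comparisons. The log2 fold changes of Col3a1 over Cre(−) were 1.57 in KI, 2.63 in KI/Hif1α KO, 2.99 in KI/Hif2α KO and 3.22 in KI/DKO, and those of Col4a3 -1.70, -1.34, -1.51 and -1.45. Col4a5 was lower than in Cre(−) in KI/Hif1α KO (-0.31) and KI/Hif2α KO (-0.34), but it turned to 0.06 and 0.10 when libraries were scaled to total counts alone.

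In all, 5 collagen genes had too few counts to test in any comparison. Col2a1 and Col9a1 had at most 2 and 1 counts in every library, and Col19a1 at most 4. Col9a2 had 0 counts in all 4 Cre(−) libraries and at most 7 elsewhere. Col25a1, a transmembrane collagen, had 2 to 18 counts.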

How the data were processed

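Kidney RNA was sequenced with a stranded mRNA kit as single-end reads of 75 nt. Per the paper's methods and the submitters' processing notes, the authors trimmed reads with Trim Galore 0.6.6 (cutadapt 2.5), aligned them with STAR 2.7.9a and quantified transcripts with RSEM. The notes name hg38 and GRCm38 without saying which served these libraries, whose transcript identifiers are of mouse. The authors deposited 2 tables, of expected counts and of TPM per transcript.

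Of 119353 transcripts, 116770 were matched to GENCODE M21 (GRCm38), some by identifier without version, and summed to 35971 genes. They held 99.0% to 99.2% of the counts of each library. Expected counts were rounded to whole numbers. The study's methods used DESeq2; here the main test was the quasi-likelihood test of edgeR 4.0.16 (R 4.3.3) on all 17 libraries in a single fit with TMM scaling. Genes were kept by filterByExpr with a minimum count of 10, which left 17011 and removed 18960. P-values were adjusted by Benjamini-Hochberg over the tested genes, two-sided, at 0.05. The test was checked on simulated counts in which far fewer genes changed than against Cre(−), evenly up and down. That check does not show how the test or TMM scaling fares when most genes change. CPM are TMM-scaled and compare groups, and TPM compare genes. Whether the libraries of a group share a litter is not given in the sources used here, and p-values measure only the spread between these kidneys. Alternatives were DESeq2 1.42.0, other size factors, no filter, only the 2 groups compared, a replicate block, limma 3.58.1 on log2(TPM + 1) and log2(TPM + 0.1), Cre(−) mice with or without floxed Hif1α alone, and each library left out.

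The members, classes and gene lists were chosen with earlier results of these data known. All 44 genes could be named. Values by library were given for types I, III, IV, V, VI, XV and XVIII and for the 3 largest changes in each direction, and at most 3 genes were given with values for each pathway list and comparison. Values of Col12a1, Col8a2 and Col11a2 by library, and the names of marker genes, were chosen after they were seen. Intervals of log2 differences are 95% t intervals. Head-to-head pairs were compared within each pair. Ratios per kilobase of the longest transcript were added after the data were seen. Promoter windows were RefSeq's, and no protein sequence was used here. Figures were drawn with matplotlib. Some genes of the lists are not reported here by name.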

Additional observations from a re-analysis of the deposited data

Results flagged for a closer look

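Among the collagen genes, 78 groups of 4 kidneys were examined for a kidney far from the rest of its group (Dixon's test), and 6 had one; chance gives about 1 in 20 groups. In Cre(−), replicate 2 was low for Col12a1 (15.3 CPM, others 19.7 to 19.9), Col6a2 (13.6 CPM, others 25.3 to 26.8) and Col23a1 (4.87 CPM, others 7.54 to 7.81). Replicate 3 was high for Col24a1 (2.38 CPM, others 1.66 to 1.78), and replicate 4 was high for Col26a1 (8.97 CPM, others 4.44 to 5.00). In KI/Hif1α KO, replicate 2 was low for Col23a1 (2.75 CPM, others 3.93 to 4.18).

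Col13a1 differed between the single knockouts, with a log2 difference of 1.96 in the direct test of KI/Hif1α KO against KI/Hif2α KO. Leaving out any of 5 of the 7 kidneys, 1 at a time, lost the call.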

How the results depend on the processing

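Against Cre(−), the number of collagen genes past the threshold changed little: it was 29 for KI, 24 to 30 under other settings and 25 to 28 with 1 library left out, and 27 to 31, 26 to 29 and 27 to 33 under other settings for KI/Hif1α KO, KI/Hif2α KO and KI/DKO. Of the 29 calls in KI, 16 held under every setting and without every library. Against KI the counts depended on the processing. For KI/Hif1α KO (6) they were 11 by DESeq2, 3 with only the 2 groups fitted and 3 by limma on log2(TPM + 0.1), and 2 to 6 with 1 library left out. For KI/Hif2α KO (4) they were 14 by DESeq2, 8 with libraries scaled to total counts, 0 with only the 2 groups fitted (18 had an unadjusted p under 0.05 in the fit of all groups), and 0 to 13 with 1 library left out. For KI/DKO (16) they were 7 with only the 2 groups fitted and 8 to 18 with 1 library left out. KI/Hif1α KO against KI/Hif2α KO (1) gave 2 by DESeq2, 2 with only the 2 groups fitted, 0 by limma with either pseudocount and 0 to 1 with 1 library left out. Calls over all genes moved in the same fits. For KI/Hif1α KO against KI they were 925 in the main fit, 1664 by DESeq2 and 246 with only the 2 groups fitted. For KI/Hif2α KO they were 236, 1015 and 2, and for KI/DKO 2164, 2897 and 1028. Between the 2 single knockouts they were 73, 543 and 132. The cause was not tested.

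Same-numbered libraries did not visibly deviate together (r of -0.22 to 0.25 over 31 pairs, with 4 over 0.1). No pairing by number was seen over all genes, but correlations in groups this small could miss a weak one. With the replicate number as a block, 26 collagen genes passed in KI against Cre(−), 2, 1 and 13 in KI/Hif1α KO, KI/Hif2α KO and KI/DKO against KI, and 0 between the 2 single knockouts. Of 17 libraries, 3 correlated best with one of their own number.

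Scaling to total counts moved the median of all genes against Cre(−) to between 0.37 and 0.48, and split all calls into 1730 higher and 589 lower in place of 1111 and 1053 for KI/DKO against KI, and 234 and 60 in place of 126 and 110 for KI/Hif2α KO. Directions were followed for the calls and a few other results, not for every gene, and among these they turned in 4 genes. Without KI replicate 1, Col15a1 and Col18a1 were at -0.049 and -0.045 in KI against Cre(−), and their highest values with 1 library left out were 0.76 and 0.26. By limma on log2(TPM + 1) and log2(TPM + 0.1), Col16a1 was at 0.073 and 0.076 in KI and at 0.54 and 0.58 in KI/Hif1α KO against Cre(−). Col4a5 was at 0.055, 0.11 and 0.12 in KI/Hif1α KO and at 0.10, 0.12 and 0.13 in KI/Hif2α KO against Cre(−), with total counts and the 2 limma fits in turn.

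The basement membrane share by counts per kilobase was 75.4%, 70.6%, 62.5%, 61.3% and 58.5% in Cre(−), KI, KI/Hif1α KO, KI/Hif2α KO and KI/DKO, and with type IV chains alone 56.0%, 57.5%, 48.3%, 46.8% and 43.3% of TPM. Depth limited the genes at a few counts in some libraries, among them Col24a1, Col22a1, Col10a1 and Col28a1 in Cre(−), Col6a4, Col6a6 and the 5 genes not tested.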

Other observations

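Summed over all members, collagen genes took 0.188% ± 0.010 of library counts in Cre(−) (SD, n = 4), 0.284% ± 0.021 in KI (SD, n = 3), 0.329% ± 0.014 in KI/Hif1α KO (SD, n = 4), 0.369% ± 0.040 in KI/Hif2α KO (SD, n = 3) and 0.387% ± 0.029 in KI/DKO (SD, n = 3). In TPM the sums were 444, 859, 951, 1099 and 1145, and in TMM-scaled CPM 2327, 2764, 3167, 3358 and 3486. All 4 groups with Cre lay above Cre(−) in every kidney on all 3 scales, and the step from Cre(−) to KI was smallest in CPM.

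Per length, Col6a3 stood at 0.712 ± 0.162 of Col6a1 in Cre(−) (SD, n = 4) and between 0.323 and 0.408 in the means of the 4 groups with Cre. Col4a5 stood at 22.8 ± 2.5 times Col4a6 in Cre(−) and between 10.2 and 11.4 times in the means of those groups, and the Cre(−) kidneys did not overlap the others in that ratio. Col1a1 over Col1a2 was 0.832 ± 0.045 in KI/Hif2α KO (SD, n = 3) and 0.647 ± 0.036 in KI/Hif1α KO (SD, n = 4), with no overlap. Of the 39 tested genes, 6 had a negative log2 fold change against KI in all 3 knockout groups, namely Col11a1, Col11a2, Col12a1, Col28a1, Col4a2 and Col9a3, none of which passed the test there. The number over all genes was not counted.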
